A study of Mus musculus with 18 samples.

Results

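Long noncoding RNA (lncRNA) genes that stand apart from protein-coding genes were examined for dimethylation of lysine 79 of histone H3 (H3K79me2) in mouse CD4 T cells. The set holds every lncRNA gene of the mouse RefSeq annotation (GRCm38.p6, the assembly of mm10) on chromosomes 1 to 19 and X that lies at least 5 kb from any protein-coding gene. This gave 6455 of 12697 annotated lncRNA genes, and 4581 of those left out overlapped a protein-coding gene. The 6455 genes formed 5917 separate loci, since 990 of them overlapped another gene of the set, and genes that share bases also share values. Their lengths ran from 147 bp to 1284 kb with a median of 9.03 kb, against 17.3 kb for protein-coding genes. Together they spanned 123 Mb.

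H3K79me2 is laid down by the methyltransferase DOT1L, which travels with elongating RNA polymerase II, and the mark is found mainly over the first part of the bodies of transcribed genes. A lncRNA is a transcript that is not read as protein. Such genes are often transcribed in few cell types, and several act in lymphocytes on the expression or survival programmes of nearby genes. The mark over a lncRNA gene body is read here only as covered sequence, not as transcript level.

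The series addressed what DOT1L does in T helper cells. H3K79me2 libraries came from Th1 cells (3), Th2 cells (3) and naive cells (3), with 9 matching inputs. Th1 cells came from IFNg-YFP reporter mice. Their culture of 4 days on plate-bound anti-CD3 and anti-CD28 held IL-12, IL-2 and anti-IL-4, and YFP+ cells were sorted. Th2 cells came from 4C13R reporter mice (IL-4 AmCyan and IL-13 dsRed), were cultured in the same way but with IL-4, IL-2 and anti-IFNg, and were sorted for either colour. Naive cells were CD44- CD62L+ cells sorted from spleens of WT mice without culture. The genotype label was WT in all groups. Age and sex were not stated. Stimulation, culture, reporter strain and the sort gate thus changed together between Th1 or Th2 cells and naive cells and cannot be told apart. Whether replicate libraries stem from different animals is not stated in the labels. The p-values therefore reflect variation among libraries, possibly of technical origin.

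The deposited values were broad peak lists, called separately in each library. Read depth behind the lists is unknown. For each gene the share of its annotated body under merged peaks was computed per library, as a percent, and differences are given in percentage points. The lists covered 217 to 240.1 Mb in Th1, 232 to 249.9 Mb in Th2 and 276 to 285 Mb in naive libraries, so more of the genome was covered in every naive library. The lncRNA genes held 1.38 to 1.50% of these bases in Th1, 1.44 to 1.70% in Th2 and 1.31 to 1.35% in naive libraries. The 8 T lineage marker genes were covered over 81.9% or more of their bodies in every group mean. Tbx21, the master regulator of Th1 cells, averaged 100% in Th1, 99.9% in Th2 and 0% in naive cells, so it did not part Th1 from Th2 cells. Il4 averaged 23.0% in Th1, 100% in Th2 and 0% in naive cells, Il13 averaged 17.6%, 100% and 0% and Il5 0%, 92.8% and 0% in the same order. Il1rl1, the IL-33 receptor gene of Th2 cells, went against this, with 30.7% in Th1, 0.472% in Th2 and 0.186% in naive cells. Of the B cell markers given here, Ms4a1, Pax5 and Blk were at 0 in every group, Cd79a was at 100% in every group, and Cd79b was at 0 in Th1 and Th2 and 54.3% in naive cells. The CD8 gene Cd8a averaged 0% in Th1, 7.28% in Th2 and 100% in naive cells, and Cd8b1 averaged 9.01%, 23.3% and 100% in the same order. All 4 myeloid markers and 5 of 6 markers of other tissues were at 0, Ncr1 was at 0, and Tyrobp, an adaptor of NK and myeloid receptors, averaged 44.97% in Th1, 93.0% in Th2 and 100% in naive cells.

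The promoters of 6 lncRNA genes are printed because these genes, among those with a promoter entry, showed the largest differences in covered length between groups. Each runs from 250 bases before to 50 bases after the annotated start in the RefSeq table of GRCm38.p6, 5′ to 3′ on the gene's strand. Capitals mark matches, on either strand, to the letters AGGTGT (T-box factors), TGANTCA (AP-1) and TGTGGT (RUNX factors). AGATAA (read by GATA factors), TTCNNNGAA (by STAT factors), ACCGGAAG (by ETS factors) and TATAAA (of the TATA box) were searched too and matched none of the 6 windows. The minus-strand promoters lie at chr13:28885373-28885672 (2610307P16Rik), chr2:128429302-128429601 (Morrbid) and chr1:51596669-51596968 (Gm17767). The plus-strand promoters lie at chr2:9352010-9352309 (Gm13219), chr1:137898214-137898513 (Gm4258) and chr9:32782896-32783195 (Gm3331).
2610307P16Rik: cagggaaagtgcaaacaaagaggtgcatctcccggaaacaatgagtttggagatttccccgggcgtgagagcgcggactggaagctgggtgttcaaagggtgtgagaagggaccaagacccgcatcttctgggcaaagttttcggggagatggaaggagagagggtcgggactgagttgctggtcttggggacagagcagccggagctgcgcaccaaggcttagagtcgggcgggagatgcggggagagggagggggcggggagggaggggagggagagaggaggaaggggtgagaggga
Morrbid: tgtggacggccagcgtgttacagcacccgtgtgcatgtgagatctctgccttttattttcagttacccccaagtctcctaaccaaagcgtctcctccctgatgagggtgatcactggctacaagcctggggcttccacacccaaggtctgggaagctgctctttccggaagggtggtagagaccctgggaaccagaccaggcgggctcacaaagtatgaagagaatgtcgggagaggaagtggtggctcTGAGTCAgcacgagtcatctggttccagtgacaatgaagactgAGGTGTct
Gm17767: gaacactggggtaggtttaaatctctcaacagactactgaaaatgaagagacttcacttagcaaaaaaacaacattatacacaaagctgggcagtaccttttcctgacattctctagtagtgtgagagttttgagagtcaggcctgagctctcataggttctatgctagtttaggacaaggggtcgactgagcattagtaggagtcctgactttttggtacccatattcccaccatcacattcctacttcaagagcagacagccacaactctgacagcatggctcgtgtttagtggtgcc
Gm13219: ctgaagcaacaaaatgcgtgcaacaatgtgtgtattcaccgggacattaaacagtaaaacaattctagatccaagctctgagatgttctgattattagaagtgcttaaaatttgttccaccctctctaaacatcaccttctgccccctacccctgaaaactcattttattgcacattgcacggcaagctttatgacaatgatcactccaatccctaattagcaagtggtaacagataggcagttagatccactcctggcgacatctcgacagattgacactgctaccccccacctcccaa
Gm4258: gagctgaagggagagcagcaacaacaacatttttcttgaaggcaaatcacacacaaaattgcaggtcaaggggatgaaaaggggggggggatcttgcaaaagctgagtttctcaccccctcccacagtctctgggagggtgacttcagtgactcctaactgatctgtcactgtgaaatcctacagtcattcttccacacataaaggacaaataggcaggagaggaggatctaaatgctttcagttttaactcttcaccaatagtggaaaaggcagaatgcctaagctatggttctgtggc
Gm3331: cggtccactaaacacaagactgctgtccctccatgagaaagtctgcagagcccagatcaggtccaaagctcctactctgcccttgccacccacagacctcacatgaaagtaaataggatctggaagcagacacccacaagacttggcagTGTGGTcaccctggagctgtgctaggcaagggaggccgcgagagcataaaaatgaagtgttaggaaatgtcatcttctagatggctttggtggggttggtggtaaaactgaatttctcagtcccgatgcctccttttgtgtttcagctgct

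The Morrbid window held 1 T-box and 1 AP-1 match, the Gm3331 window held 1 RUNX match, and the other windows held no match to the letters searched. Among 32851 promoters of all genes, 13.7% held AGGTGT, 7.81% held TGANTCA and 16.8% held TGTGGT, and among the 5956 promoter windows of the lncRNA genes the shares were 15.7%, 10.6% and 21.2%. A match is a string of letters and not a shown binding site. Peaks covered the Morrbid window completely in all 3 Th1 libraries, over 86.3, 100 and 100% in Th2 libraries and not at all in naive libraries. The Gm17767 window was covered completely in 3 of 3 Th1 and in 2 of 3 Th2 libraries and not at all in naive libraries. The Gm3331 window was at 0% in all Th1 libraries and in Th2 replicate 1, and fully covered in Th2 replicates 2 and 3 and in all 3 naive libraries. The Gm13219 window was covered over 91% in Th2 replicate 1 and at 0% in the other libraries, and the Gm4258 window was fully covered in naive replicate 1 and at 0% in the other libraries. The 2610307P16Rik window was at 0% in all 9 libraries, although nearly all of the body was covered in naive cells. It held 14 CpG dinucleotides, against 0 in the Gm4258 window.

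Few of these lncRNA genes carried the mark. A peak touched 556 to 622 of the 6455 genes in a Th1 library, 675 to 838 in a Th2 library and 609 to 647 in a naive library. At least 50% of the body was covered in at least 2 of 3 libraries, called marked from here on, for 208 genes (3.22%) in Th1, 242 (3.75%) in Th2 and 236 (3.66%) in naive cells. Among the 6242 lncRNA genes nearer than 5 kb to a protein-coding gene the shares were 16.4% in Th1, 17.7% in Th2 and 20.7% in naive cells. Of these nearer genes 4581 overlapped a coding gene and share its covered bases, so their shares do not show an effect of distance alone. In the 1-kb classes from 1 to 5 kb, without overlap, 6.83 to 8.23% were marked in Th1 cells. The range there was 6.97 to 9.09% in Th2 and 6.42 to 12.05% in naive cells. Among 21631 protein-coding genes the shares were 26.5%, 26.8% and 33.1% in Th1, Th2 and naive cells. No peak touched 5270 of the 6455 genes in any library, and 28 were fully covered in all 9. The remaining 1157 varied between libraries and entered the test.

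**Figure D1:**
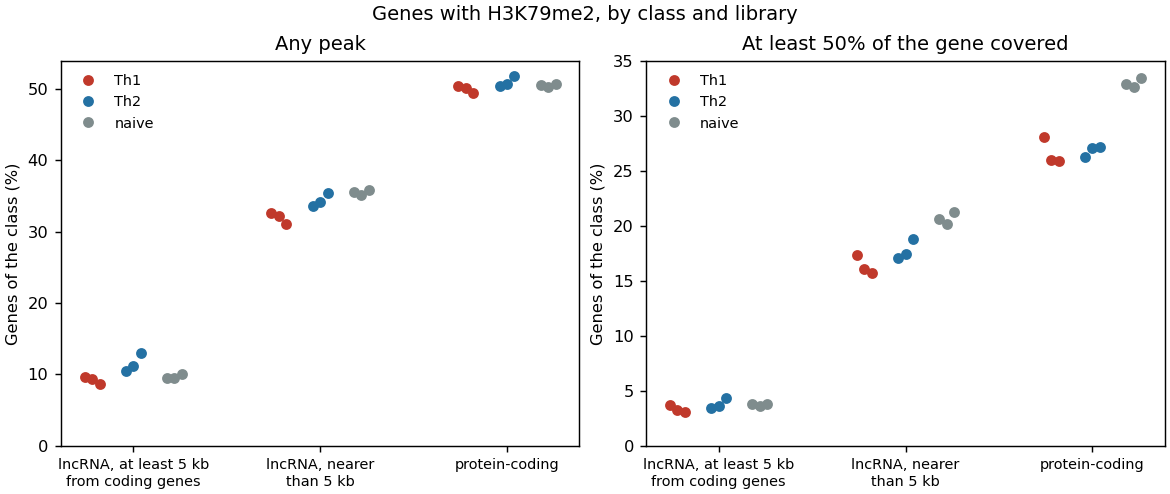
Percent of the genes of each class (vertical axes) with any peak (left) and with at least 50% of the gene covered (right), 1 point per library, in Th1 (red), Th2 (blue) and naive (grey) cells. On the right the 9 points of the lncRNA genes at least 5 kb from coding genes lie between 3.08 and 4.35%, below every point of the other 2 classes.

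Of the 360 lncRNA genes marked in any group, 117 were marked in all 3 groups, 60 in Th1 and Th2 but not in naive cells, 22 in Th2 and naive but not in Th1 cells and 10 in Th1 and naive but not in Th2 cells. A further 21 were marked in Th1 cells alone, 43 in Th2 cells alone and 87 in naive cells alone. Among the 7653 marked protein-coding genes, 5124 were marked in all 3 groups, 253 in Th1 and Th2 but not in naive cells, 313 in Th2 and naive but not in Th1 cells, 230 in Th1 and naive but not in Th2 cells, 124 in Th1 cells alone, 116 in Th2 cells alone and 1493 in naive cells alone. Marked genes became fewer with distance from coding genes. At 5 to 20 kb, 4.95% were marked in Th1, 6.02% in Th2 and 6.14% in naive cells, and at 100 to 500 kb the shares were 1.42%, 1.58% and 0.980%. Beyond 500 kb 0 of 275 were marked in Th1, 1 in Th2 and 0 in naive cells. On the 2 sides of the 5 kb limit the counts were the same, with 13 of 158 genes marked in Th1, 13 in Th2 and 11 in naive cells both at 4 to 5 kb and at 5 to 6 kb.

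Most of the mark on these genes lay in peaks that touched no protein-coding gene. Such peaks, called standalone here, made up 92.6 to 93.9% of the covered lncRNA bases in Th1, 93.5 to 94.4% in Th2 and 90.6 to 93.6% in naive libraries. Among marked genes, 185 of 208 in Th1, 211 of 242 in Th2 and 197 of 236 in naive cells had most of their covered bases in standalone peaks. A peak that runs on from a coding gene supplied all covered bases of 13 marked genes in Th1, 22 in Th2 and 28 in naive cells. The authors' fold enrichment of the standalone peaks had medians of 2.15 to 2.18 in Th1, 2.05 to 2.14 in Th2 and 2.12 to 2.24 in naive libraries. In every library this was slightly below the median of peaks on coding genes (2.20 to 2.23, 2.14 to 2.25 and 2.17 to 2.29). The standalone peaks were also narrower in every library, with median widths of 787 to 1427 bp against 1281 to 2105 bp on coding genes. Wide peaks are less often standalone by definition, so this difference in width is partly built in. The genes also lie at least 5 kb from coding genes, so narrow peaks on them can seldom reach one. The high standalone share thus partly follows from how the set was chosen.

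Along the gene, coverage was higher at the 5′ than at the 3′ end in both lncRNA and coding genes. In genes of at least 10 kb with a known strand and a peak in at least 2 libraries of the group, the first 10% of the length of lncRNA genes was covered over 35.8% ± 2.86 in Th1, 30.5% ± 4.02 in Th2 and 37.2% ± 0.961 in naive cells (SD, n = 3 each). The last 10% was covered over 22.7% ± 2.41 in Th1, 19.9% ± 3.25 in Th2 and 23.7% ± 1.79 in naive cells. In protein-coding genes the first 10% was covered over 74.7% ± 1.27 in Th1, 74.3% ± 1.36 in Th2 and 77.6% ± 0.310 in naive cells, and the last 10% over 19.4% ± 1.93, 18.1% ± 0.888 and 26.1% ± 0.782. Promoters of marked lncRNA genes had few CpG dinucleotides. At least 10 CpG were found in 18.9% of 280 promoters of marked and 7.15% of 4618 promoters of unmarked lncRNA genes, against 84.5% of marked and 42.8% of unmarked protein-coding genes.

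**Figure D2:**
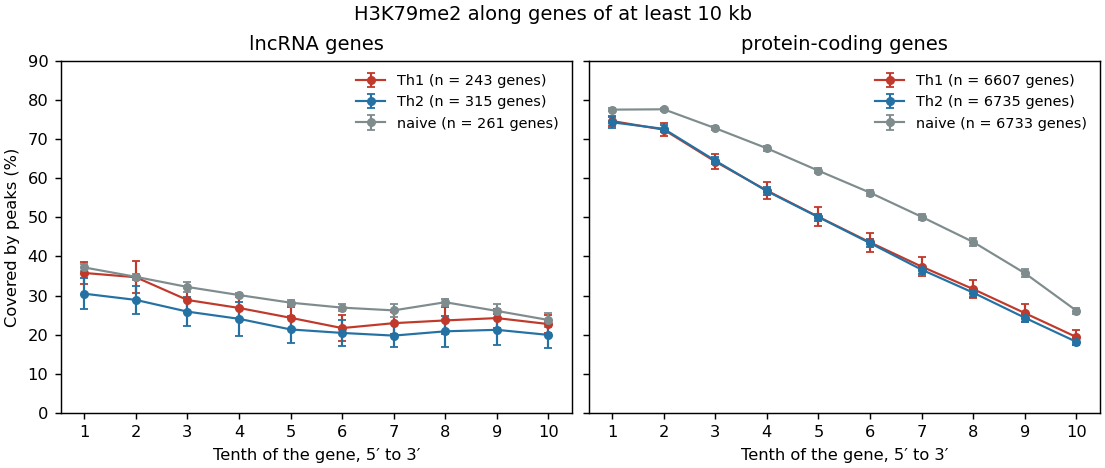
Mean percent covered by peaks (vertical axis) in each 10% of the gene from 5′ to 3′ (horizontal axis) for lncRNA genes (left) and protein-coding genes (right) of at least 10 kb, with SD over the 3 libraries of Th1, Th2 and naive cells. Coverage of coding genes drops from 74.3 to 77.6% in the first 10% to 18.1 to 26.1% in the last, while lncRNA genes start at 30.5 to 37.2% and end at 19.9 to 23.7%.

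By covered length averaged over all 9 libraries, the longest covered lncRNA genes were Pvt1, 2610035D17Rik, LOC115487747, Lncpint, Gm20098, Morrbid, 2610307P16Rik and Gm12216. Pvt1, the neighbour of the growth regulator Myc (chr15:62037986-62260215, 222 kb), was covered over 99.5, 98.6 and 98.1% in the Th1 libraries, 98.6, 99.0 and 98.7% in the Th2 libraries and 91.1, 91.2 and 92.8% in the naive libraries. Lncpint, a p53-responsive lncRNA (chr6:31093563-31218474, 125 kb), was covered completely in all 9 libraries although the nearest coding gene, Klf14, lay 135 kb away. Pvt1 thus had most of its length and Lncpint its whole length under peaks in every group. 2610035D17Rik (chr11:113043906-113201838, 158 kb) was covered over 89.7, 89.5 and 89.4% in the Th1 libraries, 86.2, 91.4 and 91.7% in the Th2 libraries and 97.0, 96.7 and 97.3% in the naive libraries, and LOC115487747 lies within its span. Gm20098 (chr17:51882727-51965257, 82.5 kb), 49.4 kb from Satb1, an organiser of T cell chromatin, was covered over 95.6, 93.3 and 95.5% in the Th1 libraries, 98.9, 100 and 100% in the Th2 libraries and 100% in all 3 naive libraries. The last 3 of the 8 differed between groups and are described below with the comparisons.

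Lists of known lncRNA genes placed these values among familiar names. Of 32 names on the T cell and immune list, 13 were members of the set, and 9 of these were marked in Th1, 7 in Th2 and 7 in naive cells. AW112010, a lncRNA locus of interferon-stimulated T cells, was covered completely in all 9 libraries. The peak over it was 14.7 to 17.2 kb wide in Th1, 9.48 to 12.1 kb in Th2 and 6.37 to 7.22 kb in naive libraries. Its fold enrichment was 7.48 to 9.11, 4.27 to 4.42 and 3.68 to 3.87 in the same order. These differences, which the covered share cannot show, were not tested. Mir17hg, host of the miR-17 to miR-92 cluster, was covered completely in all but naive replicate 2, which had 92.3%. Gm19585, 316 kb from Satb1, was at 100% in all Th1 and Th2 libraries, against 93.1, 93.0 and 92.5% in the naive libraries. A630023P12Rik (chr5:110514923-110525980) was covered over 57.5, 50.4 and 41.3% in the Th1 libraries, 41.5, 42.2 and 49.2% in the Th2 libraries and 81.8, 82.6 and 82.0% in the naive libraries. It fell by 32.4 points (SE 4.07, adjusted p = 3.46e-04) in Th1 and fell by 37.8 points (SE 4.07, adjusted p = 1.59e-04) in Th2 cells. With libraries centred, its Th1 difference was -24.3 points and its call ended, and with peaks of a −log10 q of at least 5 the difference was -33.3 points and the call ended too. Mirt1 was covered over 83.8, 53.9 and 40.5% in the Th1 libraries, 62.7, 73.7 and 74.4% in the Th2 libraries and 56.6, 48.8 and 48.7% in the naive libraries and was not called. Gm15328, Dreh and 2700054A10Rik were at 0 in all libraries.

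Of 19 names on the nuclear and ubiquitous list, 10 were members, with 7 marked in Th1, 7 in Th2 and 6 in naive cells. Malat1, a nuclear speckle RNA, Neat1, the scaffold of paraspeckles, and Oip5os1 were covered completely in every library. The Neat1 peak also reached a coding gene in every library, so none of its covered bases stood alone. In 8 of 9 libraries, all but Th1 replicate 3, Malat1 lay in that same peak. Norad, an RNA that binds Pumilio proteins, was covered over 81.5, 61.5 and 58.7% in the Th1 libraries, 82.4, 69.0 and 61.1% in the Th2 libraries and 41.7, 53.9 and 52.5% in the naive libraries. Its groups did not overlap between Th1 or Th2 and naive cells, and neither difference was called. Dubr was at 100% in all Th1 and Th2 libraries, against 85.6, 83.1 and 90.6% in the naive libraries. Firre, a nuclear RNA from the X chromosome, was covered over 9.46, 8.98 and 7.24% in the Th1 libraries, 1.52, 0.683 and 3.13% in the Th2 libraries and 0.842, 1.23 and 0% in the naive libraries, and Miat was at 0 throughout.

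Trp53cor1, also known as lincRNA-p21, was the single member of this list that was called. This p53-induced gene lies at chr17:29057474-29079126, 11.9 kb from Cdkn1a, the gene of the cell cycle inhibitor p21. Peaks covered 100, 100 and 95.3% in the Th1 libraries, 100% in all 3 Th2 libraries and 0% in all 3 naive libraries. No naive library had a peak there. It rose by 98.4 points (SE 1.47, adjusted p = 4.46e-09) in Th1 and by 100 points (SE 1.47, adjusted p = 3.84e-09) in Th2 cells. Gm41556, which overlaps it, was at 100% in every Th1 and Th2 library and at 0 in every naive library, in the same peak. Cdkn1a itself averaged 99.7% ± 0.146 in Th1, 98.3% ± 1.82 in Th2 and 0% in naive cells (SD, n = 3 each).

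The 3 genes of the X inactivation list that were members did not change by the test. Xist, the RNA that coats the inactive X chromosome, was covered over 71.6, 70.9 and 72.7% in the Th1 libraries, 67.7, 70.8 and 69.8% in the Th2 libraries and 62.8, 70.1 and 70.8% in the naive libraries. Jpx, an activator of Xist, was at 100% in all libraries but naive replicate 3, which had 96.9%. Ftx was covered over 19.97, 17.7 and 19.1% in the Th1 libraries, 23.3, 19.4 and 31.8% in the Th2 libraries and 27.3, 29.2 and 26.9% in the naive libraries. Over the first 2 kb of Ftx alone, a measure chosen after seeing the data, Th2 cells were 81.1 points above naive cells and this difference was called. Of 4 snoRNA host genes in the set, Snhg20 was covered completely in all 9 libraries and Snhg11 was at 0. Snhg5 was at 100% in all Th1 and Th2 libraries, against 89.4, 90.2 and 90.3% in the naive libraries. Snhg17 was covered over 82.0, 73.9 and 74.997% in the Th1 libraries, 85.8, 77.0 and 76.2% in the Th2 libraries and 49.0, 47.4 and 48.9% in the naive libraries. It rose by 28.5 points (SE 3.12, adjusted p = 1.67e-04) in Th1 and by 31.2 points (SE 3.12, adjusted p = 1.07e-04) in Th2 cells. When genes were extended by 2 kb on each side, these differences were 11.9 and 13.1 points and both calls ended. The other lists were largely unmarked. Of 7 miRNA host genes 1 had any peak (Mir17hg), neither of the 2 imprinted genes H19 and Mirg had any, and of 5 genes known from other tissues only Halr1, beside the Hoxa genes, had a peak, with 6.32 to 7.68% in naive libraries and 0 elsewhere.

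**Figure D3:**
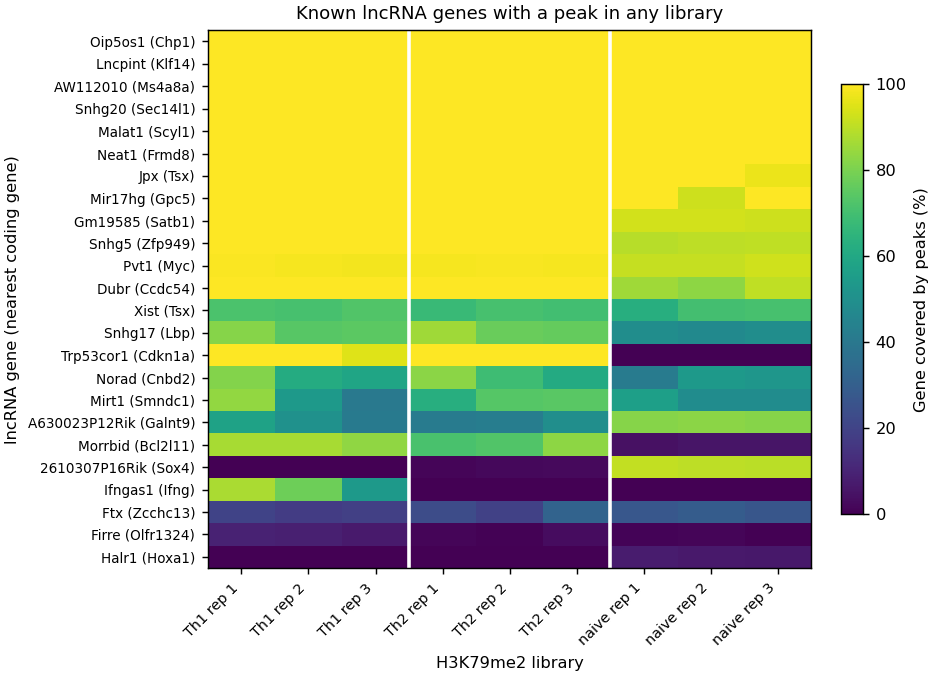
Percent of the gene covered by peaks (colour) in each of the 9 H3K79me2 libraries (columns, Th1, Th2 and naive) for the known lncRNA genes with a peak in any library (rows, with the nearest coding gene in brackets). Malat1, Lncpint, AW112010, Oip5os1, Neat1 and Snhg20 are at 100% throughout, while Trp53cor1 and Morrbid are high in Th1 and Th2 libraries, Ifngas1 in Th1 libraries and 2610307P16Rik in naive libraries.

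Against naive cells, Th1 cells gained the mark over Morrbid, Ifngas1 and lncRNA genes near Tnip3, Nabp1 and Id2. They lost it over 2610307P16Rik and lncRNA genes near Ptprc, Ets1 and Adipoq. A gene was called when it differed by at least 25 points with an adjusted p under 0.05 (limma, Benjamini-Hochberg over all 15150 genes tested). Genes named below for large differences were picked among called genes whose groups did not overlap. The lack of overlap stated for them is therefore set by this choice and adds no support. In Th1 against naive cells 115 lncRNA genes were higher and 150 lower, which is 9.94% and 12.96% of the 1157 tested. Over all genes tested, 5.29% were higher and 16.98% lower. Of protein-coding genes tested 4.35% were higher and 16.3% lower, and of lncRNA genes nearer than 5 kb 7.61% were higher and 22.3% lower. Over the lncRNA genes the median difference was 0 points, against -4.60 points over all genes tested. The split of the calls moved with the scaling of the libraries. It was 167 higher to 119 lower with each library centred, and 129 to 61 with each list trimmed to the same covered length.

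Morrbid, a lncRNA known to restrain the neighbouring pro-apoptotic gene Bcl2l11 in myeloid cells and in T cells, gained the most covered length. It lies at chr2:128298663-128429351 (minus strand, 131 kb), 136 kb from Bcl2l11, and was covered over 87.0, 86.8 and 83.4% in the Th1 libraries, against 4.45, 5.70 and 5.67% in the naive libraries. The Th1 peaks amounted to 112 ± 2.71 kb, and the naive peaks to 6.89 ± 0.929 kb (SD, n = 3 each). Every Th1 library was far above every naive library. The difference was 80.5 points (SE 3.11, adjusted p = 8.18e-07). Bcl2l11 was covered over 99.3% ± 0.392 in Th1 and 90.9% ± 5.04 in naive cells and was not called. Gm36154 (chr2:128430797-128466515), just beyond the 5′ end of Morrbid, was covered over 97.3, 95.5 and 91.9% in the Th1 libraries, against 0% in all 3 naive libraries. It rose by 94.9 points (SE 4.53, adjusted p = 2.32e-06). In all 3 Th1 libraries the widest peak on Gm36154 was also the widest on Morrbid (129, 103 and 100 kb), so these gains are not separate. Over the first 2 kb of Morrbid, where naive libraries had peaks too, the difference was 24.9 points, which is under the limit of a call.

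Ifngas1, also known as NeST, is a lncRNA that lies beside the interferon gamma gene Ifng and is known to raise its expression. It lies at chr10:118502035-118556525 (54.5 kb), 56.1 kb from Ifng, and was covered over 87.4, 78.0 and 53.6% in the Th1 libraries and 0% in all Th2 and naive libraries. It was the member marked in Th1 cells alone with the most covered length, 39.8 ± 9.51 kb. No Th2 or naive library had a peak on it. The difference was 73.0 points (SE 7.55, adjusted p = 1.24e-04). All of these bases lay in standalone peaks. Ifng averaged 100% in Th1, 2.77% in Th2 and 0% in naive cells. Th1 cells had been sorted by a reporter of Ifng, and the part of this sort in the difference was not tested.

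LOC108169147 (chr6:65525335-65577161, 51.8 kb), 13.2 kb from Tnip3, which encodes an inhibitor of NF-kappaB signalling, was covered over 67.0, 69.7 and 76.1% in the Th1 libraries, against 0% in all 3 naive libraries. It rose by 70.9 points (SE 5.36, adjusted p = 2.42e-05). The Th2 libraries had 39.6, 50.9 and 62.2%, a called rise of 50.9 points over naive cells (SE 5.36, adjusted p = 1.41e-04). With peaks of a −log10 q of at least 5 that Th2 difference was 14.3 points and not called. Gm17767 (chr1:51509505-51596718, 87.2 kb), near the single-strand DNA binding protein gene Nabp1, was covered over 83.6, 80.4 and 74.2% in the Th1 libraries, against 27.1, 22.7 and 27.8% in the naive libraries. The groups did not overlap, and it rose by 53.5 points (SE 5.28, adjusted p = 9.64e-05). The widest Gm17767 peaks spanned 74.5 kb to 75.5 kb in Th1 and 4.95 kb to 6.03 kb in naive libraries. Counted over standalone peaks alone its Th1 difference was 13.8 points and not called. In the Th2 libraries Gm17767 was covered over 50.5, 59.9 and 71.8%, a called rise of 34.8 points over naive cells (SE 5.28, adjusted p = 9.49e-04). That Th2 call ended in standalone peaks, at 18.1 points, and with peaks of a −log10 q of at least 5, at 24.6 points. Gm36287 (chr12:25139540-25230206), 43.4 kb from Id2, an inhibitor of E proteins that is used by effector T cells, was covered over 52.8, 35.6 and 20.5% in the Th1 libraries, against 2.25, 1.86 and 0.646% in the naive libraries. Its Th1 libraries differed widely from each other, and it rose by 34.7 points (SE 8.92, adjusted p = 0.0122). With peaks of a −log10 q of at least 5 that difference was 15.9 points and the call ended. Short genes that had no peak in naive libraries and full coverage in Th1 libraries included Gm34020, Gm35109 and Gm19723, which lies 43.3 kb from Cd47. Of these, the call of Gm34020 ended with the stricter peaks, at 33.3 points.

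The largest loss of covered length in the set was over 2610307P16Rik, a lncRNA gene of 425 kb at chr13:28460034-28885422, 63.5 kb from Sox4, a transcription factor gene of early T cell development. Its covered share was 0.0755, 0.0940 and 0.0922% in the Th1 libraries, 1.52, 2.18 and 2.65% in the Th2 libraries and 90.7, 90.01 and 89.7% in the naive libraries. Peaks held 0.371 ± 0.0435 kb of it in Th1, 9.01 ± 2.43 kb in Th2 and 383 ± 2.04 kb in naive cells (SD, n = 3 each). The Th1 difference was -90.04 points (SE 1.05, adjusted p = 9.76e-10). Sox4 averaged 0% in Th1, 0% in Th2 and 79.6% ± 4.09 in naive cells and was called lower in both. The naive domain began within 2 kb of the annotated start and ran, with gaps, to the 3′ end.

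Gm4258 (chr1:137898464-137963020, 64.6 kb) lies 99.8 kb from Ptprc, the gene of the phosphatase CD45, and was covered over 48.3, 30.2 and 30.3% in the Th1 libraries, against 100, 99.5 and 98.9% in the naive libraries. It fell by 63.2 points (SE 5.03, adjusted p = 3.14e-05), while Ptprc averaged 88.8% ± 0.607 in Th1 and 83.6% ± 1.27 in naive cells and was not called. Over the first 2 kb of Gm4258 the difference was -15.9 points and not called. Gm3331 (chr9:32783146-32834460, 51.3 kb) lies 25.3 kb from Ets1, a transcription factor gene that naive T cells keep active, and was covered over 14.7, 10.1 and 12.1% in the Th1 libraries, against 91.5, 90.6 and 91.0% in the naive libraries. Each naive library was above each Th1 library by a wide margin, and it fell by 78.7 points (SE 6.83, adjusted p = 4.93e-05). Ets1 averaged 94.8% ± 0.649 in Th1 and 99.0% ± 0.426 in naive cells. C730014E05Rik (chr16:23175280-23204377), 17.3 kb from the adiponectin gene Adipoq, was covered over 12.9, 10.3 and 17.3% in the Th1 libraries, against 94.3, 91.8 and 94.1% in the naive libraries. Naive peaks there were 162 kb to 178 kb wide and reached coding genes. It fell by 79.9 points (SE 2.22, adjusted p = 1.48e-07), and fell by 19.6 points, with no call, in standalone peaks.

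Other losses did not hold once all lists were trimmed to the same covered length. Gm15411 fell by 44.7 points (SE 1.87, adjusted p = 1.20e-06), Gm30235 fell by 37.5 points (SE 4.27, adjusted p = 2.08e-04) and Gm33273 fell by 95.7 points (SE 5.66, adjusted p = 6.92e-06). With trimmed lists the differences were -4.50 points for Gm15411, 1.18 points for Gm30235 and -29.1 points for Gm33273, and none was called. Neither Gm15411, at -8.51 points, nor Gm33273, at -29.1 points, was called with peaks of a −log10 q of at least 5. 5830416I19Rik and Gm51888, 55.2 kb from Il9r, were at 0 in all Th1 libraries. In naive libraries 5830416I19Rik was at 100% throughout and Gm51888 at 95.9 to 100%. Naive lists covered more sequence, and Cd8a, Cd8b1, Cd79b and Tyrobp also stood higher in naive cells, with the values given above. Their part in the lower calls was not tested.

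**Figure D4:**
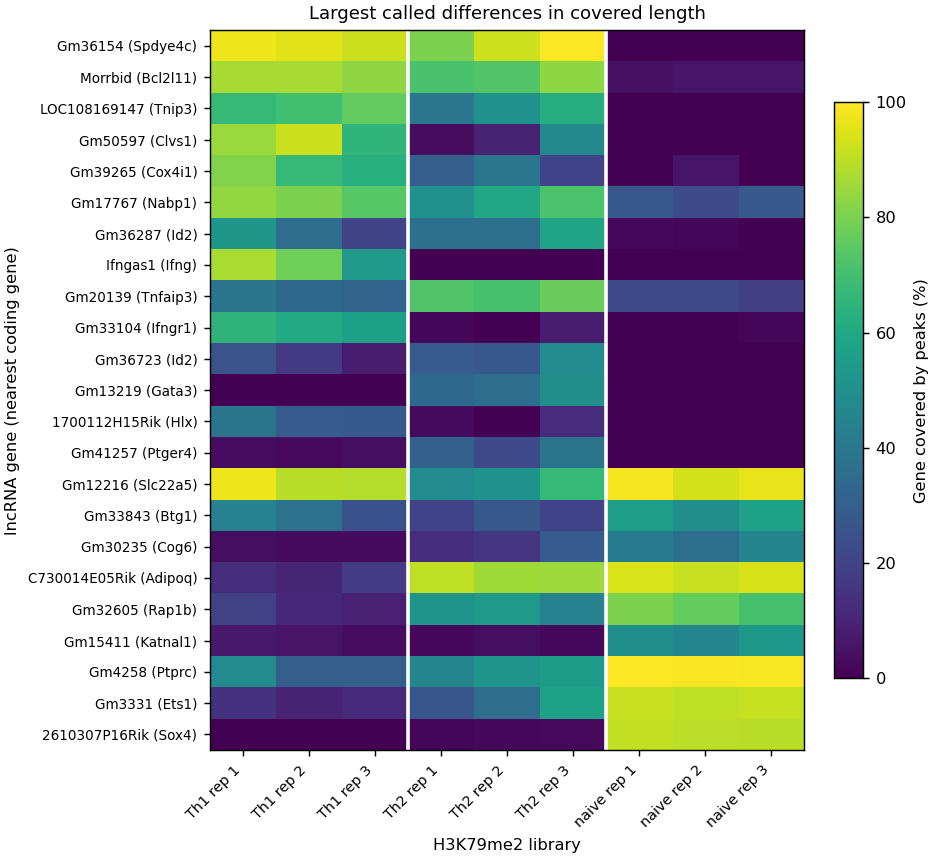
Percent of the gene covered by peaks (colour) in each of the 9 H3K79me2 libraries (columns, Th1, Th2 and naive) for the lncRNA genes with the largest called differences in covered length in the 3 comparisons (rows, with the nearest coding gene in brackets). Rows from Gm36154 to Gm41257 are at or below 27.8% in every naive library, and 2610307P16Rik, Gm3331 and Gm4258 are at 89.7% or more in naive libraries and at 57.0% or less in the others.

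Th2 cells shared the gains over Morrbid and the lncRNA genes near Tnip3, Nabp1 and Id2, and the loss over 2610307P16Rik. They also had the mark over Gm13219, whose nearest coding gene is Gata3, and over Gm20139, near Tnfaip3. Both comparisons with naive cells use the same 3 naive libraries, so they are not independent. In Th2 against naive cells 139 lncRNA genes were higher and 131 lower, 12.01% and 11.3% of the 1157 tested. Over all genes tested 5.61% were higher and 15.5% lower. The shares were 4.24% and 15.3% of protein-coding genes and 9.15% and 18.3% of nearer lncRNA genes. The median difference was 0.333 points over the lncRNA genes, against -4.24 points over all genes tested. With each library centred the split was 180 higher to 107 lower, and with trimmed lists 129 to 57.

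Morrbid was covered over 71.2, 73.0 and 83.1% in the Th2 libraries, against 4.45, 5.70 and 5.67% in the naive libraries. It rose by 70.5 points (SE 3.11, adjusted p = 1.70e-06), and over its first 2 kb by 24.9 points, without a call. Gm36154, beside it, was covered over 80.3, 92.2 and 100% in the Th2 libraries and had no peak in naive cells. In Th2 replicates 2 and 3 the widest peak on Gm36154, 93.6 and 147 kb, was again the widest on Morrbid. 2610307P16Rik fell by 88.0 points (SE 1.05, adjusted p = 1.07e-09) in Th2 cells, with the values per library given above. In all 3 Th2 libraries a little of it was still covered.

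Gm13219 (chr2:9352260-9467314, 115 kb) was covered in Th2 libraries alone. Its nearest coding gene, 389.8 kb away, is Gata3, the master regulator of Th2 cells. Peaks covered 33.7, 35.7 and 49.4% in the Th2 libraries and 0% in all Th1 and naive libraries. No Th1 or naive library had a peak on it. The difference from naive cells was 39.6 points (SE 3.70, adjusted p = 7.69e-05). With trimmed lists it was 20.6 points and not called, and over the first 2 kb it was 7.72 points, also not called. The Th2 coverage was in pieces, with 30, 26 and 24 peaks on the gene in the 3 libraries. Their highest fold enrichment was 2.80, 2.37 and 2.57 and the widest spanned 4.87, 6.81 and 10.5 kb. A value with peaks of a −log10 q of at least 5 is not given here for Gm13219. The Gata3 body averaged 97.8% ± 1.89 in Th2, 59.7% ± 1.87 in Th1 and 75.3% ± 1.18 in naive cells. Gata3 was called higher in Th2 than in Th1 cells, and in Th2 against naive cells its difference was 22.5 points, under the limit of a call.

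Gm20139 (chr10:19141749-19207947, 66.2 kb) lies 126 kb from Tnfaip3, the gene of the NF-kappaB inhibitor A20, and was covered over 73.0, 70.7 and 77.2% in the Th2 libraries, 38.9, 33.8 and 32.2% in the Th1 libraries and 21.96, 22.5 and 18.9% in the naive libraries. Th2 libraries were highest and naive libraries lowest, without overlap between any 2 groups. It rose by 52.5 points (SE 2.49, adjusted p = 2.48e-06) in Th2 against naive cells. Gm40607 (chr10:19235311-19243553), 113 kb from the neural gene Olig3, was covered over 57.3, 70.9 and 71.6% in the Th2 libraries and 0% in all Th1 and naive libraries. Near Id2, Gm36287 was covered over 36.6, 35.9 and 58.4% in the Th2 libraries and rose by 42.1 points (SE 8.92, adjusted p = 0.00506), and Gm36723 was covered over 28.7, 27.1 and 48.2% in the Th2 libraries, against 0% in all 3 naive libraries, and rose by 34.7 points (SE 6.37, adjusted p = 0.00251). With peaks of a −log10 q of at least 5 the Gm36723 difference was 5.18 points and with trimmed lists 21.4 points, and its call ended in both.

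**Figure D5:**
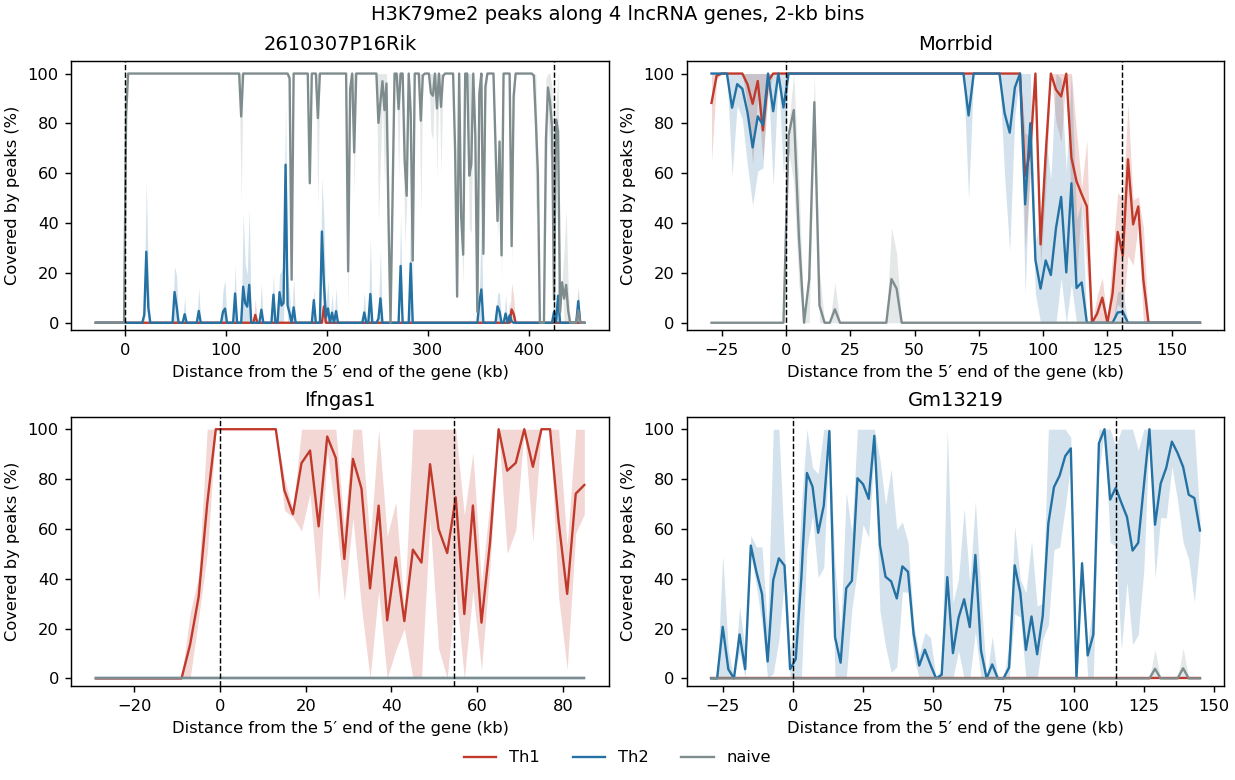
Percent of each 2-kb bin covered by peaks (vertical axes) against the distance from the 5′ end of the gene in kb (horizontal axes) for 2610307P16Rik, Morrbid, Ifngas1 and Gm13219. Lines are means and bands the range over the 3 libraries of Th1, Th2 and naive cells, and dashed lines mark the ends of the gene. Naive cells alone have a domain over 2610307P16Rik, Th1 and Th2 cells share the domain over the 5′ part of Morrbid, Ifngas1 is covered in Th1 cells and Gm13219 in Th2 cells.

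Some Th2 gains came from peaks that reached a coding gene. Gm51643 and Gm42292 were at 100% in all Th2 libraries and 0 in all naive libraries, but neither had a covered base in a standalone Th2 peak. In the Th1 libraries Gm51643 was covered over 72.9, 69.9 and 100%, all in standalone peaks. This was a called rise of 80.9 points over naive cells (limma, adjusted p = 5.66e-05). With peaks of a −log10 q of at least 5 that Th1 difference was 17.6 points and not called. The Gm42292 difference in Th1 against naive cells was 16.2 points and not called. The Gm51643 peak was 70.5 kb wide in each Th2 library, and the nearest coding gene, the kinase gene Dyrk3, averaged 93.7% ± 6.09 in Th2 and 0% in naive cells. Gm35895, in contrast, was at 100% in all Th2 and Th1 libraries and 0 in naive libraries in peaks that touched no coding gene.

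Lower in Th2 than in naive cells were Gm4258, Gm3331, Gm15411, Gm33843 and Gm12216 besides 2610307P16Rik. Gm4258 was covered over 45.4, 51.7 and 54.8% in the Th2 libraries and fell by 48.8 points (SE 5.03, adjusted p = 1.25e-04). Gm3331 was covered over 26.9, 35.7 and 57.0% in the Th2 libraries, all under the naive libraries, and fell by 51.1 points (SE 6.83, adjusted p = 4.93e-04). Over the first 2 kb the Gm4258 difference was -30.02 points and its call ended. Gm15411 fell by 47.2 points (SE 1.87, adjusted p = 9.60e-07). With trimmed lists its difference was -7.27 points and with peaks of a −log10 q of at least 5 it was -8.51 points, both not called. Gm33843, 18.3 kb from Btg1, an inhibitor of proliferation that is kept in resting T cells, was covered over 20.1, 27.0 and 20.3% in the Th2 libraries, against 55.6, 49.4 and 57.1% in the naive libraries. It fell by 31.6 points (SE 4.96, adjusted p = 0.00113), and fell by 24.8 points with each library centred, where the call ended. The call also ended with trimmed lists, at -6.78 points, with peaks of a −log10 q of at least 5, at -22.3 points, in standalone peaks, at -23.4 points, and over the first 2 kb, at -13.4 points. Cd8a, Cd8b1 and Cd79b stood lower in Th2 than in naive cells too, and their part in these calls was not tested.

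Fewer lncRNA genes were called between the cultured cell types than against naive cells. Reporter strain, cytokines and sort gate differed together between Th2 and Th1 cells and cannot be told apart. In Th2 against Th1 cells 62 lncRNA genes were higher and 36 lower, 5.36% and 3.11% of those tested. Over all genes tested 2.82% were higher and 1.82% lower, among protein-coding genes 2.04% and 1.56%, and among nearer lncRNA genes 5.35% and 2.42%. The median difference was 0.622 points over the lncRNA genes and 0.127 points over all genes tested. The split was 61 to 42 with centred libraries and turned to 39 higher and 43 lower with trimmed lists. Higher in Th2 cells were genes whose nearest coding genes were Gata3 (389.8 kb away), Tnfaip3, Adipoq, Rap1b, Ptger4 and Ets1. With trimmed lists the calls of those beside Gata3, Rap1b, Ptger4 and Ets1 ended. Lower were Ifngas1 and genes whose nearest coding genes were Slc22a5, Ifngr1 and Hlx.

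C730014E05Rik was covered over 90.3, 85.7 and 85.3% in the Th2 libraries, against 12.9, 10.3 and 17.3% in the Th1 libraries. The groups were far apart and the difference was 73.6 points (SE 2.22, adjusted p = 1.42e-06). Gm13219 rose by 39.6 points (SE 3.70, adjusted p = 4.53e-04) and Gm20139 by 38.7 points (SE 2.49, adjusted p = 6.86e-05), with the values per library given above. The Gm13219 difference with trimmed lists was 20.6 points and not called. Gm32605 (chr10:117876692-117911460), 30.7 kb from the small GTPase gene Rap1b, was covered over 51.7, 54.2 and 44.5% in the Th2 libraries, 19.9, 11.1 and 9.04% in the Th1 libraries and 80.2, 76.5 and 71.1% in the naive libraries. It rose by 36.8 points (SE 4.00, adjusted p = 9.64e-04) in Th2 against Th1 cells while naive libraries were highest. With trimmed lists that difference was 18.8 points and with peaks of a −log10 q of at least 5 1.13 points, and neither was called. Gm32605 was called lower in Th1 and in Th2 than in naive cells, but with trimmed lists both differences turned, to 7.66 and 26.4 points, and with the stricter peaks they were -7.60 and -6.48 points and not called. The Th2 call against naive cells ended with centred libraries, at -19.002 points, and also without Th2 replicate 3 (-23.0 points) or naive replicate 1 (-23.7 points).

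Gm41257, 10.5 kb from Ptger4, the gene of a prostaglandin E2 receptor, was covered over 30.9, 22.1 and 38.7% in the Th2 libraries, 3.37, 2.49 and 3.62% in the Th1 libraries and 0% in all 3 naive libraries. It rose by 27.4 points (SE 3.61, adjusted p = 0.00245) against Th1 cells. Without Th2 replicate 3, the highest library, the difference was 23.3 points and under the limit of a call. With trimmed lists it was 11.1 points and over the first 2 kb 9.73 points, and neither was called. Gm3331, near Ets1, was 27.6 points (SE 6.83, adjusted p = 0.0351) higher in Th2 than in Th1 cells. That difference was 0 points with peaks of a −log10 q of at least 5, with trimmed lists 10.9 points and over the first 2 kb 13.4 points, and the call ended each time. It also ended without naive replicate 1, 2 or 3, without Th1 replicate 1, 2 or 3, and without Th2 replicate 2 or 3, with differences from 19.003 (without Th2 replicate 3) to 29.7 points (without Th2 replicate 2). Gm32176 and Gm40679 lie 23.0 kb and 31.3 kb from Egr2, a transcription factor gene induced by T cell receptor signals. Gm32176 was at 100% in all Th2 libraries and at 0 in all Th1 and naive libraries. The Th2 peak over both was 38.4 kb to 38.6 kb wide and reached a coding gene.

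Lower in Th2 than in Th1 cells, Ifngas1 fell by 73.0 points (SE 7.55, adjusted p = 7.65e-04), with no peak in any Th2 library. Gm12216 (chr11:53785489-53859256, 73.8 kb) lies in the cytokine cluster of chromosome 11. Its nearest coding gene, 5.3 kb away, is Slc22a5, which averaged 48.6% in Th1, 52.6% in Th2 and 64.4% in naive cells. Irf1, an interferon-induced transcription factor gene, lies 7.11 kb away and the cytokine gene Il5 60.4 kb away. Gm12216 was covered over 48.3, 51.3 and 66.9% in the Th2 libraries, 97.5, 89.4 and 88.8% in the Th1 libraries and 98.7, 93.5 and 96.8% in the naive libraries. Th2 libraries lay below all Th1 and naive libraries, and the difference from Th1 cells was -36.4 points (SE 4.96, adjusted p = 0.00287). It fell by 40.9 points (SE 4.96, adjusted p = 2.99e-04) against naive cells, where the difference in standalone peaks was -13.4 points and not called. The Gm12216 difference over the first 2 kb was -16.7 points from Th1 and -16.7 points from naive cells, and neither was called. Irf1 was at 100% in all groups, while Il5 averaged 92.8% in Th2, 0% in Th1 and 0% in naive cells. The mark was thus lower over Gm12216 and higher over Il5 in the same Th2 libraries.

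Gm33104 (chr10:19486715-19507318), 84.6 kb from the interferon gamma receptor gene Ifngr1, was covered over 1.41, 0 and 8.01% in the Th2 libraries, 64.9, 61.3 and 56.3% in the Th1 libraries and 0, 0 and 1.55% in the naive libraries. It fell by 57.7 points (SE 2.75, adjusted p = 1.52e-05). Ifngr1 averaged 65.2% ± 6.41 in Th2 and 92.0% ± 0.965 in Th1 cells and was called lower too. 1700112H15Rik, 169 kb from Hlx, a transcription factor gene of Th1 cells, was covered over 2.74, 0 and 12.8% in the Th2 libraries, 38.3, 29.2 and 28.5% in the Th1 libraries and 0% in all 3 naive libraries. It fell by 26.8 points (SE 3.76, adjusted p = 0.00326), near the limit of a call. Without Th1 replicate 1 the difference was -23.7 points and without Th2 replicate 2 it was -24.3 points, and the call ended in both cases. The difference over the first 2 kb was -16.0 points and not called. Hlx averaged 13.9% ± 24.2 in Th2 and 100% in Th1 cells. Gm50597 was covered over 3.48, 9.94 and 46.9% in the Th2 libraries, 85.1, 92.1 and 65.5% in the Th1 libraries and 0% in all 3 naive libraries, with Th2 libraries far apart from each other, and fell by 60.8 points (SE 11.7, adjusted p = 0.0132). The Gm50597 call ended with peaks of a −log10 q of at least 5, at -44.7 points. Gm39265, 10.98 kb from Cox4i1, a subunit gene of cytochrome c oxidase, was covered over 30.4, 39.2 and 20.2% in the Th2 libraries, 81.2, 67.0 and 62.5% in the Th1 libraries and 0, 5.54 and 0% in the naive libraries. It fell by 40.3 points (SE 6.10, adjusted p = 0.00451), and fell by 19.7 points, without a call, in standalone peaks. Over its first 2 kb the difference was 0 points.

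Some members were covered in a single group. Counting genes marked in a group and under 10% in every library of the others, there were 5 of 208 marked genes in Th1 (2.40%), 9 of 242 in Th2 (3.72%) and 32 of 236 in naive cells (13.6%). Among marked protein-coding genes the same rule gave 25 of 5731 in Th1 (0.436%), 20 of 5806 in Th2 (0.344%) and 75 of 7160 in naive cells (1.05%). The difference between the kinds of gene was not tested. In Th1 cells the 5 were Ifngas1, Gm33104, Gm34181, Gm32143 and Gm12707. With peaks of a −log10 q of at least 5 the Gm34181 difference was 25.6 points in Th1 against naive and -25.6 points in Th2 against Th1 cells. Neither was called. With trimmed lists the Gm32143 differences were 32.6 and -32.6 points in the same order, also not called. Gm12707 was covered over 79.6, 20.1 and 60.7% in the Th1 libraries, and its call against Th2 cells ended when any library but Th1 replicate 2 was left out, with -40.4 points without Th1 replicate 1 and -49.8 points without Th1 replicate 3. In Th2 cells the 5 with the most covered length were Gm30636, Gm40607, Gm30657, Gm40358 and Gm41818. Gm30636, 19.7 kb from Cd200, the gene of an inhibitory surface ligand, was covered over 65.8, 45.1 and 54.6% in the Th2 libraries, 8.23, 6.06 and 1.01% in the Th1 libraries and 1.08, 0 and 0% in the naive libraries. With peaks of a −log10 q of at least 5 its difference from Th1 cells was 0.878 points, as was its difference from naive cells, and neither was called. With the same peaks Gm40358 was 22.3 points above Th1 and above naive cells, and Gm41818 35.2 points above Th1 cells, again without a call. With trimmed lists the calls of Gm30657 against Th1 and naive cells ended, at 16.9 points. That of Gm40607 against Th1 cells ended too, at 42.6 points. In naive cells the 5 were 2610307P16Rik, Gm32200, Gm5907, Gm27230 and Gm39538. Gm39538, 5.09 kb from Tsc22d3, the glucocorticoid-induced gene GILZ, was covered over 1.45, 1.97 and 0% in the Th1 libraries, 0, 4.16 and 3.41% in the Th2 libraries and 74.3, 86.4 and 90.4% in the naive libraries. With trimmed lists the Gm39538 and Gm27230 differences in Th1 against naive cells were -14.2 and -6.60 points and not called, and with peaks of a −log10 q of at least 5 they were -14.8 and -15.3 points, also not called.

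The nearest coding gene of a called lncRNA gene was mostly not called in the same comparison, or not among the genes tested. In Th1 against naive cells the nearest coding gene was called the same way for 17 of the 115 higher and 27 of the 150 lower genes. In Th2 against naive cells this held for 19 of 139 and 21 of 131, and in Th2 against Th1 cells for 5 of 62 and 5 of 36. Of the nearest coding genes that were tested, this is 19.3% of 88 and 21.4% of 126 in Th1 against naive, 17.9% of 106 and 19.1% of 110 in Th2 against naive, and 9.43% of 53 and 16.1% of 31 in Th2 against Th1 cells. Over all coding genes tested, 4.35% were called higher and 16.3% lower in Th1 against naive, 4.24% and 15.3% in Th2 against naive, and 2.04% and 1.56% in Th2 against Th1 cells. The shares beside lower lncRNA genes against naive cells were thus near the background. Those beside higher lncRNA genes, and both shares in Th2 against Th1 cells, were above it, which was not tested. The nearest coding gene was called the opposite way for 3, 1, 3, 1, 0 and 0 of the called lncRNA genes in the same order. Pairs called together included Ifngas1 and Ifng, 2610307P16Rik and Sox4, Trp53cor1 and Cdkn1a, and Gm33104 and Ifngr1. Pairs with a called lncRNA gene and no call on the coding gene included Morrbid and Bcl2l11, Gm4258 and Ptprc, Gm3331 and Ets1, and Gm20139 and Tnfaip3. Coding genes near full coverage in all groups had little room to be called higher, a limit that does not apply to lower calls. In all, 345 lncRNA genes at 323 loci were called in at least 1 comparison, 29.8% of the 1157 tested, against 24.9% of protein-coding genes and 27.03% of all genes tested.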

How the data were processed

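H3K79me2 ChIP followed by sequencing covered 3 Th1, 3 Th2 and 3 naive samples. The 9 inputs carried no peak list. The submitters' processing notes name MACS2, Bowtie2, SAMtools, Picard and the build mm10. Their versions and settings, and whether inputs served as controls, are not given in the sources used here. Each deposited peak has its positions, a score, a fold enrichment over background (a ratio), and its p and q as −log10. Peaks had been called per library. Read depth is unknown, so no counting interval was set, and a deeper or cleaner library could yield more covered sequence.

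Peaks of each library were merged, and the percent of each gene of the GRCm38.p6 RefSeq table they covered was computed (Python 3.11.15, pandas 2.3.3, numpy 2.4.6). The fit took the 15150 genes whose value varied between libraries. Percent covered was compared with limma 3.58.1 (R 4.3.3; eBayes after lmFit, trend set) in 1 fit of 9 libraries with 6 residual degrees of freedom, and p-values were adjusted by Benjamini-Hochberg over all genes tested. Genes without spread in a group owe their p-values to the variance borrowed from other genes. All adjusted p-values and SE come from this fit. The percent saturates at 0 and 100.

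The members and lists were chosen with earlier results of these data known. Named members were those with the largest called, non-overlapping differences in covered length (up to 6 per direction) or percentage points (up to 4 more, genes of at least 2 kb), the 8 with the greatest covered length, the 5 with the greatest covered length marked in a single group, and every member on the lists of known lncRNA genes. Promoter sequences came from the RefSeq table, which gave a strand for 4898 members. Alternatives were peaks of a −log10 q of at least 5, lists trimmed to the covered length of the shortest list by removing the peaks of lowest −log10 q ("trimmed lists"), libraries centred to 1 mean, standalone peaks alone, other call and distance limits, and each library left out. Those over the first 2 kb of genes with a known strand, without overlap of other gene types and with 1 gene per locus, were added after seeing the data.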

Additional observations from a re-analysis of the deposited data

Results flagged for a closer look

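Gm40679 moved in opposite directions in Th1 and Th2 cells against the same 3 naive libraries, and the difference between Th2 and Th1 cells, 95.7 points, was called (limma, SE 5.06, adjusted p = 2.54e-05). It was covered over 0, 12.8 and 0% in the Th1 libraries, 100% in all 3 Th2 libraries and 47.8, 35.4 and 30.9% in the naive libraries. The Th2 bases lay in a peak of 38.4 to 38.6 kb that reached a coding gene. In standalone peaks alone, Th2 cells stood -38.0 points from naive cells and -4.26 points from Th1 cells. With peaks of a −log10 q of at least 5 and with trimmed lists, the Th1 difference from naive cells was 0 points and not called.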

How the results depend on the processing

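Counts of called lncRNA genes were within 1.5 times those reported with centred libraries, standalone peaks, the arcsine scale, genes extended by 2 kb, no variance trend, no filter on constant genes (where limma called its variance step unreliable), genes of at least 2 kb, no overlap with other gene types and 1 gene per locus. With peaks of a −log10 q of at least 5 they were 54 higher and 77 lower in Th1 against naive, 58 and 86 in Th2 against naive, and 20 and 18 in Th2 against Th1 cells, and 143 genes were marked in Th2 cells. With trimmed lists 61 were lower in Th1 and 57 in Th2 against naive cells, and 39 higher in Th2 against Th1 cells. At least 20 kb from coding genes, where fewer genes are counted, 91 were lower in Th1 and 82 in Th2 against naive cells, 36 were higher in Th2 against Th1 cells, and 125, 141 and 133 were marked in Th1, Th2 and naive cells. A minimum difference of 10 points gave 231 and 210 lower genes against naive cells in Th1 and Th2, and 95 higher and 56 lower in Th2 against Th1 cells. A minimum of 50 points gave 68 and 79 in Th1 against naive, 81 and 67 in Th2 against naive, and 21 and 15 in Th2 against Th1 cells. Over the first 2 kb, 89 were higher in Th2 against naive cells, and 22 higher and 22 lower in Th2 against Th1 cells. The causes of these shifts were not tested.

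With each library left out in turn, Th1 against naive cells gave 106 to 132 higher and 141 to 156 lower genes, Th2 against naive cells 130 to 142 and 119 to 143, and Th2 against Th1 cells 50 to 64 and 28 to 43. When a gene had to be marked in both libraries left, 188 to 199 were marked in Th1, 203 to 220 in Th2 and 217 to 222 in naive cells. The labels number the libraries 1 to 3 in each group. Deviations of same-numbered libraries had correlations of -0.110 to 0.0140 and the best match was the same number in 1 of 18 cases, so the numbers were not taken as pairs. With the replicate block the counts were 109 and 151, 138 and 130, and 57 and 31, and 2 of 115 called single-gene results ended, Gm12707 and Gm3331 in Th2 against Th1 cells.

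Differences that changed sign were those of Gm30235 (1.18 points), Gm15889 (3.81 points) and Gm32605 (7.66 points) in Th1 against naive cells, Gm32605 in Th2 against naive cells (26.4 points) and Gm31547 in Th2 against Th1 cells (-2.39 points), all with trimmed lists. In standalone peaks they were those of Gm39024 in Th1 against naive cells (15.8 points), Gm42292 in Th2 against Th1 cells (-6.83 points) and Gm40679 in Th2 against naive (-38.0 points) and Th1 cells (-4.26 points). The Ftx difference in Th2 against naive cells was 81.1 points over the first 2 kb. Of 115 called single-gene results, 61 kept their call with the stricter peaks, 84 with trimmed lists, 100 in standalone peaks and 111 with centred libraries. With the stricter peaks 35 lost their call. A gene that became constant across libraries, as when all its peaks were removed, left that fit and is in neither count. Read depth is unknown, so a gene without a peak may still carry the mark below the caller's limit.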
